A study of Mus musculus with 8 samples.

Results

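The genes of mitochondrial complex I were compared between haematopoietic stem cells (HSCs) of mice labelled wild type and Nupr1-/-. They were taken from the expression table by symbol, as every Nduf gene of the A, B, C, S and V series, Ndufab1 and every gene whose symbol begins with Ndufaf. Ndufa4 was left out because its product belongs to complex IV. The rule found 43 genes among 11854 named entries, and it used no measured value. The 42 described here were 6 core subunits, 29 accessory subunits and 7 assembly factors. Ndufb1 was not analysed here. Ndufaf8 was in the table under an older symbol that the rule does not cover (1810043H04Rik), with a mean ± SD (n = 4) of 74.9 ± 29.8 normalised reads in wild type and 73.5 ± 9.04 in libraries labelled Nupr1-/-.

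Both groups were of C57BL/6 strain, described as kept on a C57BL/6J background, and each group had 4 libraries, 1 per mouse. The first group was wild type and the other was labelled Nupr1-/-, which denotes loss of the gene for nuclear protein 1, a small stress-induced transcriptional regulator. No treatment is given for either group. The cells were HSCs sorted from nucleated bone marrow cells, the sequenced molecule was polyadenylated RNA, and the title of the series ties Nupr1 to HSC quiescence and p53 signalling. The mice's age and sex, the surface markers of the sort and the deleted part of Nupr1 are not given in the sources used here.

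Complex I (NADH:ubiquinone oxidoreductase) takes electrons from NADH, passes them through a flavin and a chain of iron-sulfur clusters to ubiquinone, and pumps protons across the inner mitochondrial membrane. Its matrix arm holds a module that oxidises NADH and a module that reduces the quinone, while its membrane arm holds the proton pumps. The core subunits carry out catalysis, the accessory subunits surround and stabilise them, and the assembly factors help to build the complex without staying in it. Quiescent HSCs are commonly described as relying more on glycolysis than on respiration, with mitochondrial respiration rising when they are activated. The core subunits of the membrane arm are encoded by mitochondrial DNA (mt-Nd1 to mt-Nd6 and mt-Nd4l), and these 7 genes were not analysed here.

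The libraries held 2296101 to 4769401 gene reads each. The 42 complex I genes took 8040 to 18686 of these reads, a share of 0.348% to 0.415%. All 42 passed the filter on low values (at least 10 normalised reads in at least 4 libraries), and the least covered value was 11 reads, of Ndufaf6. Wild type library 2 was far from the remaining 7 on the first principal component of all genes, which carried 25.6% of the variance. Values without it are given for some of the genes that it moved, not for all. The correlation across genes (Spearman, 10890 genes) between a gene's deviation in a library and its GC content was -0.313 to -0.142 in the wild type libraries and 0.154 to 0.309 in those labelled Nupr1-/-, so GC content and genotype label cannot be told apart. Nupr1 itself had 285, 134, 245 and 318 normalised reads in wild type and 179, 173, 201 and 119 in the other group. These ranges overlap (limma adjusted p = 0.433), so the second group is called the libraries labelled Nupr1-/- throughout. All 12 HSC markers looked for were in the table. Their log2 differences (libraries labelled Nupr1-/- minus wild type) ran from -0.79 to 0.92, with 7 above 0 and 5 below. Of these 12 markers 4 had an unadjusted limma p under 0.05, where 19.7% of all genes had one. One of them, Eng, was called higher (limma adjusted p under 0.05), where 1.68% of all genes were. Groups did not overlap for 1 marker higher and 1 lower in libraries labelled Nupr1-/-, against 5.78% and 5.91% of all genes. Of 10 tested megakaryocyte and platelet markers 8 had a difference above 0 and 2 below, the lowest at -0.35. Limma called 4 of the 10 higher (Pf4, Gp9, Itga2b and Vwf), where it called 1.68% of all genes higher. The summed level of the list was 3753 to 4893 in wild type and 4500 to 5442 in libraries labelled Nupr1-/-. Of 4 tested erythroid markers 3 had a difference above 0 and 3 an unadjusted p under 0.05, where 19.7% of all genes had one. Klf1 was called higher (0 to 2.99 in wild type, 24.9 to 85.7 in the other group). It passed the filter on low values only through the libraries labelled Nupr1-/-, so the filter favoured a call in this direction. The summed level of the erythroid list was 2275 to 4671 in wild type and 4177 to 6112 in libraries labelled Nupr1-/-, while Hba-a1 stayed at 10.2 or below in all 8. The table held 1 of 9 neutrophil, 2 of 7 B cell and 2 of 7 T and NK cell markers. It also held 2 of 6 monocyte and macrophage markers, which differed by -0.94 and -0.021, and 3 of 4 progenitor markers. The 2 progenitor markers tested differed by -0.37 and 0.13. The neutrophil marker Prtn3 differed by -0.62 (limma adjusted p = 0.251), from 983 to 2908 in wild type and 847 to 1445 in the other group. The B cell marker Cd79b differed by -1.07 (limma adjusted p = 0.087), and the summed level of its list was 239.5 to 893 in wild type and 213 to 277 in libraries labelled Nupr1-/-. Both had an unadjusted p under 0.05, as did 19.7% of all genes. The part of these markers in the complex I values was not tested. In bulk RNA, fewer cells of a type and less RNA per cell cannot be told apart.

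None of the 42 complex I genes was called different between the groups. The call was an adjusted p under 0.05 in limma, with Benjamini-Hochberg adjustment over all 10989 genes tested, of which 418 were called (3.8%). Of those genes 1.68% were called higher and 2.12% lower. At an unadjusted p under 0.05 limma gave 4 complex I genes (Ndufaf4, Ndufa10, Ndufa1 and Ndufa2), against 19.7% of all genes. edgeR and DESeq2, run on the recovered reads, also called 0 of 42, where they called 3.1% and 7.05% of all genes. At an unadjusted p under 0.05 they gave 7 each, the same 4 with Ndufa9, Ndufv1 and Ndufs4, against 18.2% and 20.2% of all genes. Of the 42 fitted differences 30 were below 0, that is lower in libraries labelled Nupr1-/-, against 48.7% of all genes. Their median was -0.24 on the log2 scale, and that of all genes was 0.03. Here and below a difference is that of mean log2(normalised reads + 1), libraries labelled Nupr1-/- minus wild type.

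Depth and replicate spread set how small a difference these libraries could show. In counts simulated from these libraries, limma recovered 16.3% of genes changed 2-fold and 62.9% of those changed 4-fold. The changed genes were drawn from all tested genes, and the simulated counts carried no GC trend and no outlying library. These shares are therefore not detection rates for the complex I genes. For 22 of the 42 genes, all of them subunits, the 95% interval of the fitted difference stayed inside a 2-fold change in either direction. For no assembly factor did it do so. The median SE was 0.29 over the 35 subunits and 0.52 over the 7 assembly factors, against 0.42 over all tested genes.

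**Figure D1:**
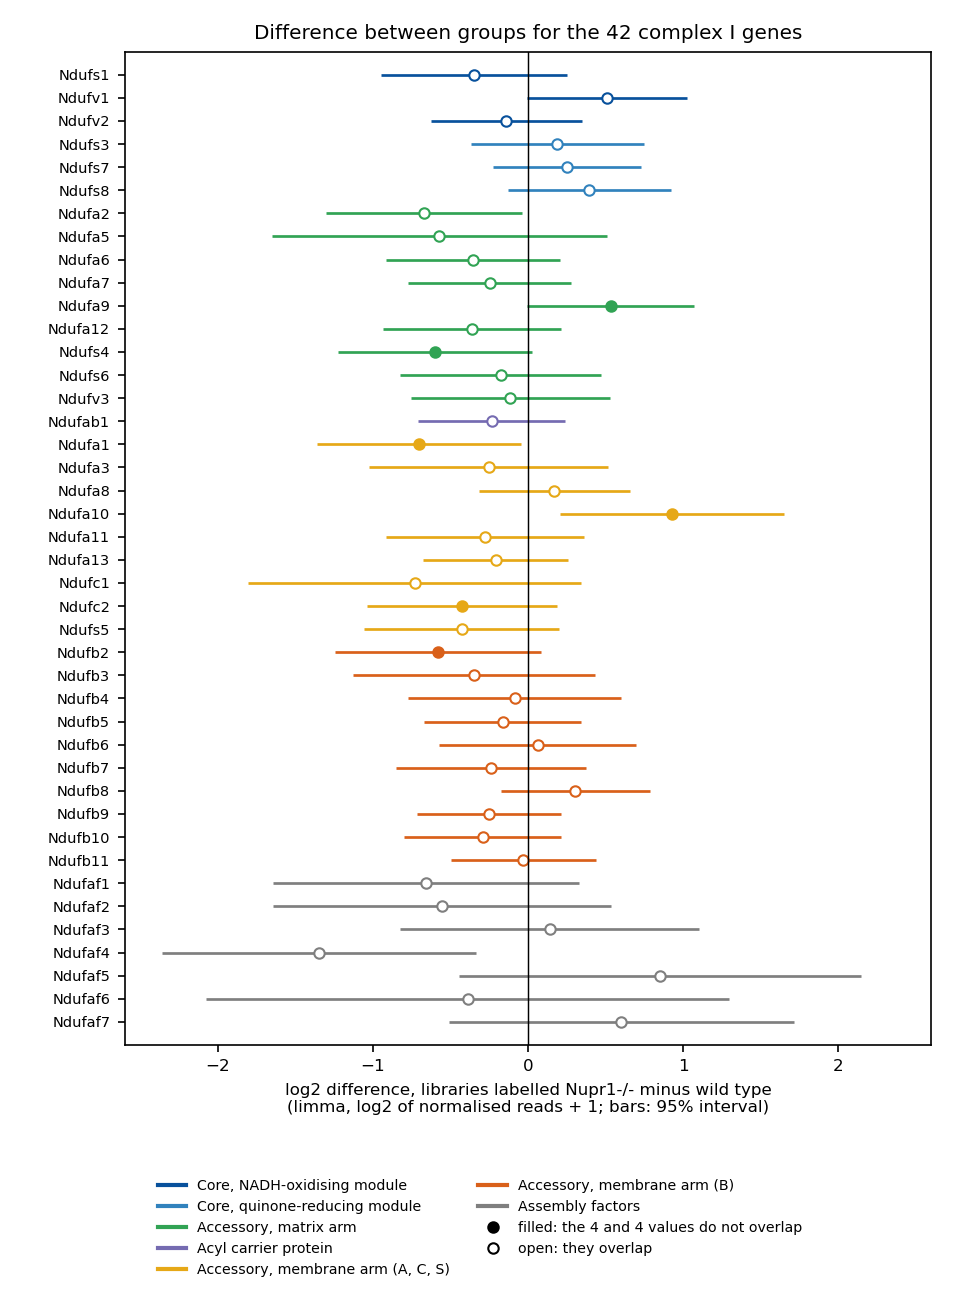
Fitted log2 difference (horizontal axis; libraries labelled Nupr1-/- minus wild type, log2 of normalised reads + 1) of each of the 42 complex I genes, in rows coloured by role, with the 95% interval from limma as a bar. The quinone-module core subunits sit right of 0, most accessory subunits sit left of it, and the assembly factors have wide bars. Filled points mark the 6 genes whose 4 and 4 values do not overlap.

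The NADH-oxidising module has 3 core subunits encoded in the nucleus, and their 3 differences did not share a direction. Values below are normalised reads in libraries 1 to 4 of each group, and libraries of the same number were not treated as pairs in the main fit. Ndufv1, which binds NADH and the flavin that first accepts its electrons, had 343, 521, 554 and 457 in wild type and 661, 617, 959 and 474 in libraries labelled Nupr1-/-. Its difference was 0.51 ± 0.25 (SE; adjusted p = 0.263), and only the fourth library of the second group fell within the wild type range. Ndufv2, an iron-sulfur protein beside Ndufv1, had 590.5, 499, 359.9 and 566 in wild type and 445, 499, 369 and 496 in the other group. The groups overlapped widely, with a difference of -0.14 ± 0.23 (SE; adjusted p = 0.787). Ndufs1, the largest core subunit and the carrier of several iron-sulfur clusters, had 269, 448, 377 and 438 in wild type and 219, 348, 436 and 228 in libraries labelled Nupr1-/-. Libraries 1 and 4 of the second group were below all wild type libraries and the other 2 were within their range, with a difference of -0.35 ± 0.29 (SE; adjusted p = 0.530). After removal of each library's dependence on GC content and transcript length (below, the GC and length trend), the differences were 0.07 for Ndufv1, 0.34 for Ndufv2 and -0.11 for Ndufs1.

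The 3 core subunits of the quinone-reducing module described here had fitted differences above 0, with a median of 0.25, and none was called. Ndufs7, which holds the last iron-sulfur cluster before the quinone, had 389, 473, 525 and 453 normalised reads in wild type and 542, 470.1, 749 and 460.2 in the other group. Its highest value was that of library 3 labelled Nupr1-/-, and the difference was 0.25 ± 0.23 (SE; adjusted p = 0.577). Ndufs8, another iron-sulfur protein of this module, had 374, 602, 294 and 349.9 in wild type and 604, 566, 466 and 438 in libraries labelled Nupr1-/-. Wild type library 2 was within the range of the second group and the other 3 wild type libraries were below it. The difference was 0.40 ± 0.25 (SE; adjusted p = 0.404) with that library and 0.60 without it. Ndufs3, which joins the module's subunits without a cluster of its own, had 304, 517, 486 and 322 in wild type and 506, 441, 592 and 315 in libraries labelled Nupr1-/-, with a difference of 0.19 ± 0.26 (SE; adjusted p = 0.735). Of its 50-base stretches 39.7% occur in other annotated genes, so its reads could be split with them. With the GC and length trend removed, 2 of the 3 differences were below 0 (Ndufs3 -0.02, Ndufs7 -0.11 and Ndufs8 0.02).

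Of the 9 accessory subunits of the matrix arm, 8 had a difference below 0, with a median of -0.36. Ndufa2, a small subunit with a thioredoxin-like fold (chr18:36742332-36744557, minus strand), had 666, 262, 448 and 726 normalised reads in wild type and 315, 233, 337 and 356 in libraries labelled Nupr1-/-. Wild type library 2 fell within the range of the second group, whereas the other 3 wild type libraries were above it. The difference was -0.67 ± 0.30 (SE; adjusted p = 0.224). Without wild type library 2 it was -0.97 and the gene was called (limma adjusted p = 0.024, with 8.15% of all genes then called), the only complex I gene called under any setting run. Ndufa9, a nucleotide-binding subunit beside the quinone module (chr6:126821721-126849136, minus strand), was the exception in direction. It had 219, 228, 278 and 267 in wild type and 402, 279, 388 and 376 in libraries labelled Nupr1-/-. The groups did not overlap, although library 2 labelled Nupr1-/- lay only just above wild type library 3, and the difference was 0.53 ± 0.26 (SE; adjusted p = 0.258). With the GC and length trend removed it was 0.62, and 0.64 with wild type library 2 also left out.

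Ndufs4, a phosphorylated subunit of the NADH module whose loss in mice causes a Leigh-like brain disease, was named after its values were seen. It had 255, 489.7, 283 and 271 normalised reads in wild type and 245, 224, 213 and 154 in libraries labelled Nupr1-/-. All 4 values of the second group were below all 4 of wild type, but wild type library 2 was far above the other 3. The difference was -0.60 ± 0.30 (SE; adjusted p = 0.273) with it and -0.38 without it. With the GC and length trend removed it was -0.21, and 0.071 with that library also left out. The other 6 matrix-arm accessory subunits had overlapping groups and differences from -0.57 (Ndufa5) to -0.11 (Ndufv3), with Ndufa12, Ndufa6, Ndufa7 and Ndufs6 between. Without wild type library 2 the Ndufa5 difference was -0.84.

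Ndufab1, the mitochondrial acyl carrier protein, sits in both arms of complex I and also serves mitochondrial fatty acid and iron-sulfur cluster synthesis. It had 464, 453, 394 and 390.00 normalised reads in wild type and 404, 340.4, 317 and 385 in libraries labelled Nupr1-/-. The groups overlapped, with a difference of -0.24 ± 0.23 (SE; adjusted p = 0.602), or 0.01 with the GC and length trend removed.

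In the membrane arm, 7 of the 9 accessory subunits of the A, C and S series had a difference below 0 (median -0.28), and both genes of smallest p had groups that did not overlap, in opposite directions. Ndufa10, a subunit resembling nucleoside kinases (chr1:92439010-92473860, minus strand), had 333, 151, 634 and 562 normalised reads in wild type and 723, 685, 736 and 649 in libraries labelled Nupr1-/-. The second group was tight and just above the highest wild type value, while the wild type values were widely spread with library 2 lowest. The difference was 0.93 ± 0.34 (SE; adjusted p = 0.144), and 0.50 without wild type library 2. With the GC and length trend removed it was 0.73, and 0.34 with that library also left out. Ndufa1, a small single-pass membrane protein encoded on the X chromosome (chrX:37187588-37191163, minus strand), had 270.2, 176, 227 and 249 in wild type and 114, 149.6, 175 and 129 in libraries labelled Nupr1-/-. Wild type library 2 and library 3 of the second group almost met, and the difference was -0.70 ± 0.31 (SE; adjusted p = 0.223). With the GC and length trend removed it was -0.14 (limma adjusted p = 0.901), and -0.084 with wild type library 2 also left out. Ndufb11 is the other X-linked complex I gene, and its difference was -0.03 ± 0.22 (SE; adjusted p = 0.959). Xist, the RNA that coats the inactive X chromosome, had 0 to 11.8 normalised reads in wild type and 107 to 159 in libraries labelled Nupr1-/-. The Xist level and the genotype label therefore cannot be told apart, in the Ndufa1 values or in any other comparison made here. The mice's sex is not given, and the part of sex or of Xist in these values was not tested.

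Ndufc2, a membrane subunit also named after its values were seen, had 248, 417, 242 and 251 normalised reads in wild type and 241, 165, 213 and 228 in libraries labelled Nupr1-/-. Without wild type library 2 its difference went from -0.43 to -0.24, and library 1 of the second group lay just under the lowest wild type value. With the GC and length trend removed it was -0.17, and 0.13 with wild type library 2 also left out. The other 6 of these subunits overlapped between groups, from -0.73 (Ndufc1) to 0.17 (Ndufa8). Without wild type library 2 the Ndufc1 difference was -1.05. Ndufa13, also known as GRIM-19, differed by -0.21 as deposited and by -0.71 with the GC and length trend removed, where it had the smallest adjusted p of the 42 (limma, 0.190). Its transcript is 60.4% GC, and 375 bases of its exons overlap those of Tssk6 on the other strand. The library kit does not mark strand, so reads of the pair there cannot be told apart.

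Of the 10 B-series subunits, which belong to the membrane arm, 8 had a difference below 0, with a median of -0.20. Ndufb2 (chr6:39592574-39603382, plus strand) had 189, 174, 188 and 223 normalised reads in wild type and 140.00, 136, 115 and 126 in libraries labelled Nupr1-/-. Every value of the second group was below every wild type value, with little spread in either. The Ndufb2 difference was -0.58 ± 0.32 (SE; adjusted p = 0.320), or -0.48 with the GC and length trend removed. Of its 50-base stretches 33.5% occur in other annotated genes, and its exons overlap those of Braf, Gm16272 and Gm42420, which makes its level uncertain. Ndufb8, the gene of highest level per length, had 375, 423, 708 and 563 in wild type and 626, 641, 609 and 604 in libraries labelled Nupr1-/-. The second group lay between 604 and 641, inside the wild type range, with a difference of 0.31 ± 0.23 (SE; adjusted p = 0.488), or 0.17 with the GC and length trend removed. The remaining 8 ran from -0.35 (Ndufb3) to 0.06 (Ndufb6), and their groups overlapped.

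The 7 assembly factors had low levels per length and wide intervals, with 4 differences below 0 and a median of -0.39. Ndufaf4, which works with Ndufaf3 on the quinone module (chr4:24898083-24905001, plus strand), had the largest difference of the 42. It had 79.4, 167, 165 and 108 normalised reads in wild type and 81.7, 38.7, 34.5 and 49.1 in libraries labelled Nupr1-/-. Libraries 2, 3 and 4 of the second group were below all of wild type, and its library 1 lay just above wild type library 1. The means ± SD (n = 4) were 129.6 ± 43.1 and 51.0 ± 21.4, and the difference was -1.35 ± 0.48 (SE; adjusted p = 0.128), with a 95% interval of -2.36 to -0.33. It missed the threshold in edgeR (adjusted p = 0.138) and in DESeq2 (adjusted p = 0.055). The Ndufaf4 transcript has the lowest GC content of the 42, 39.5%, and with the GC and length trend removed the difference was -0.63. Ndufaf1, which acts in an early assembly complex with Ecsit and Acad9, had 128, 191, 111 and 71.0 in wild type and 42.3, 128, 62.7 and 89.8 in libraries labelled Nupr1-/-. The groups overlapped, with wild type library 2 highest of the 8 and a difference of -0.66 ± 0.47 (SE; adjusted p = 0.468). It was -0.42 without that library and -0.39 without library 1 labelled Nupr1-/-.

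Among the other assembly factors Ndufaf2 and Ndufaf6 differed by -0.55 and -0.39, and Ndufaf3, Ndufaf7 and Ndufaf5 by 0.14, 0.60 and 0.85. The highest Ndufaf2 value was that of wild type library 2, without which the difference was -0.28. Ndufaf5 hydroxylates an arginine of Ndufs7, and Ndufaf7 is a protein arginine methyltransferase. Ndufaf7, named after its values were seen, had 37.6, 148, 129 and 40.8 in wild type and 68.5, 155, 174 and 86.1 in the other group. Within each group libraries 2 and 3 were high and libraries 1 and 4 low, and the groups overlapped. The Ndufaf7 difference was 0.93 without wild type library 2.

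**Figure D2:**
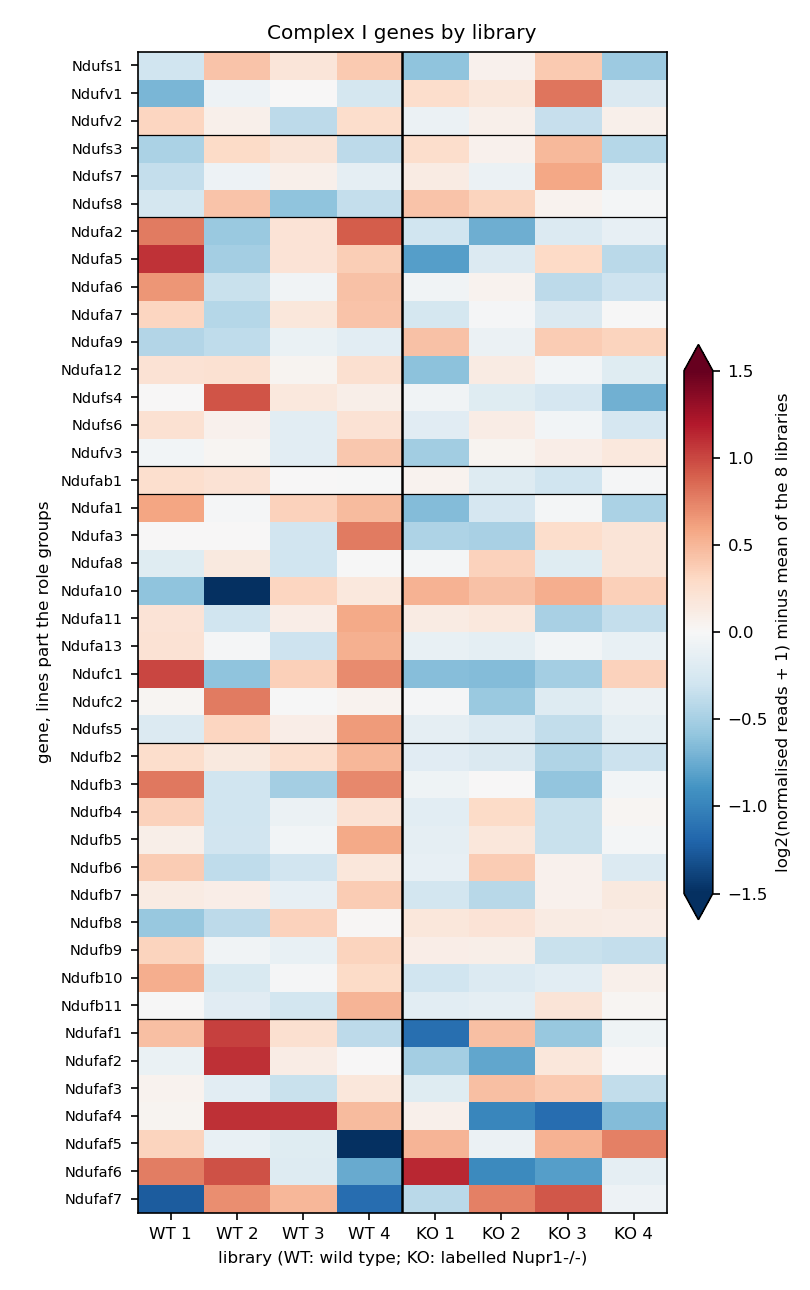
Log2(normalised reads + 1) of each of the 42 complex I genes (rows, parted by role) in each of the 8 libraries (columns), as the deviation from the gene's mean over the 8. Red is above and blue below that mean. Wild type libraries 1 and 4 are red for many accessory subunits, where they hold the highest value of 10 and 12 of the 29 genes.

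Summed over role groups, the core and the accessory subunits stood in different orders. The 6 core subunits summed to 2269, 3061, 2596 and 2586 normalised reads in wild type and 2976, 2941, 3570 and 2411 in libraries labelled Nupr1-/-. Wild type library 1 lay below the second group and the other 3 wild type libraries within its range. The 29 accessory subunits summed to 9880, 8047, 8695 and 11141 in wild type and 8317, 8622, 8297 and 8488 in the other group. Here wild type libraries 1 and 4 were high, library 2 lay below the second group and library 3 just above it. Libraries 1 and 4 were also the deepest of the 8, with 4769401 and 4500923 reads, and the part of depth in these sums was not tested. Over all 42 genes the sum was 12640.3 ± 1048 (SD, n = 4) in wild type and 11887 ± 449.5 in libraries labelled Nupr1-/-. The median difference of the 42 was -0.18 without wild type library 1 and -0.14 without library 4.

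The core sum was 23.0%, 38.0%, 29.9% and 23.2% of the accessory sum in wild type, and 35.8%, 34.1%, 43.0% and 28.4% in libraries labelled Nupr1-/-. Wild type libraries 1 and 4 were below all 4 of the second group, library 3 was above 1 of them and library 2 above 3. Of the 6 core subunits 4 had a difference above 0 (median 0.22), and of the 29 accessory subunits 24 had one below 0 (median -0.25). With the GC and length trend removed the medians were 0.00037 and -0.24. The core transcripts had a median GC content of 55.2% and a median length of 1353.5 bases, and the accessory ones 52.2% and 704 bases.

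**Figure D3:**
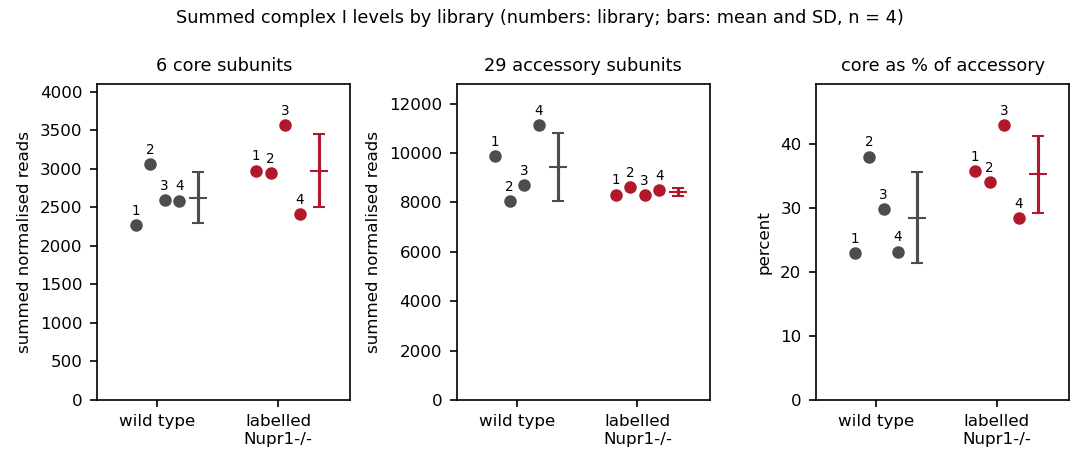
Summed normalised reads of the 6 core subunits (left) and the 29 accessory subunits (middle), and the core sum as a percent of the accessory sum (right), 1 point per library with its number, and the mean and SD of each group of 4. Wild type libraries 1 and 4 hold the largest accessory sums, 9880 and 11141, and wild type library 2 has the largest core sum of its group, 3061.

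Groups did not overlap for 6 of the 42 genes, where 11.7% of all tested genes showed this. They were Ndufa9 and Ndufa10, higher in libraries labelled Nupr1-/- (5.78% of all genes), and Ndufs4, Ndufa1, Ndufc2 and Ndufb2, lower (5.91% of all genes). Across the 42 genes, the difference and the GC content of the transcript had a Spearman correlation of 0.321, and of -0.301 after the trend was removed. The sign turned, so values of the 42 with the trend removed may still vary with GC content, which was not tested. The difference and transcript length had a Spearman correlation of 0.344, and of 0.247 after the trend was removed. These correlations are descriptions across genes that share all 8 libraries. The median complex I transcript was 891.5 bases long with 51.9% GC, against 2911 bases and 50.2% for all tested genes. With the GC and length trend removed, 31 of the 42 differences were below 0 with a median of -0.19, and with wild type library 2 also left out, 24 were, with a median of -0.076.

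**Figure D4:**
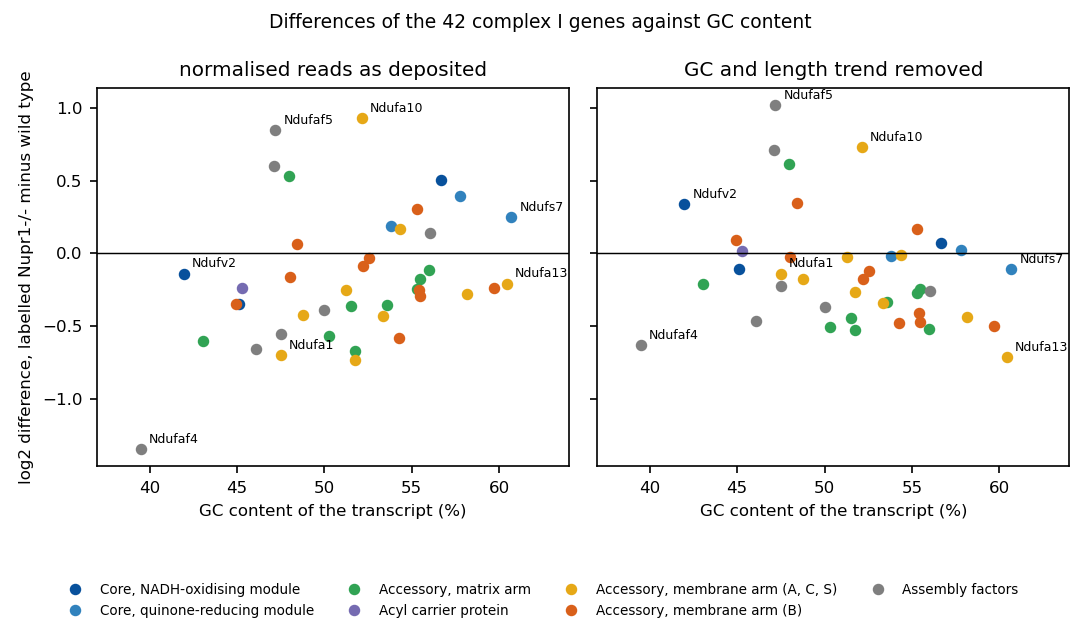
Log2 difference of each complex I gene (vertical axis; libraries labelled Nupr1-/- minus wild type) against the GC content of its transcript in percent, as deposited (left) and after removing the trend in GC content and length from each library (right), coloured by role. Ndufaf4, the gene of lowest GC content, moves from -1.35 to -0.63, and Ndufv2 crosses 0, from -0.14 to 0.34.

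Levels of different genes are compared per kilobase of transcript, as the mean over the 8 libraries. The highest was Ndufb8, at 836 normalised reads per kb, followed by Ndufb9 (769), Ndufa2 (731), Ndufa7 (727) and Ndufs7 (669.9). The steps between these 5 were smaller than the SD of each over the wild type libraries. Assembly factors ran from Ndufaf4, the lowest at 24.9, to Ndufaf2 at 99.1. Only 1 subunit, Ndufa5 at 84.3, lay in that range. The core subunits ran from Ndufs1 at 129.8 to Ndufs7, with a median of 381, and the accessory subunits from Ndufa5 to Ndufb8, with a median of 355. The level per kb depends on the transcript chosen, which was one of 3479 bases for Ndufab1 (113) and one of 3632 bases for Ndufaf4. Before division by length, Ndufaf4 had higher means in wild type and in libraries labelled Nupr1-/- (129.6 and 51.0) than Ndufaf6 (35.3 and 28.7).

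**Figure D5:**
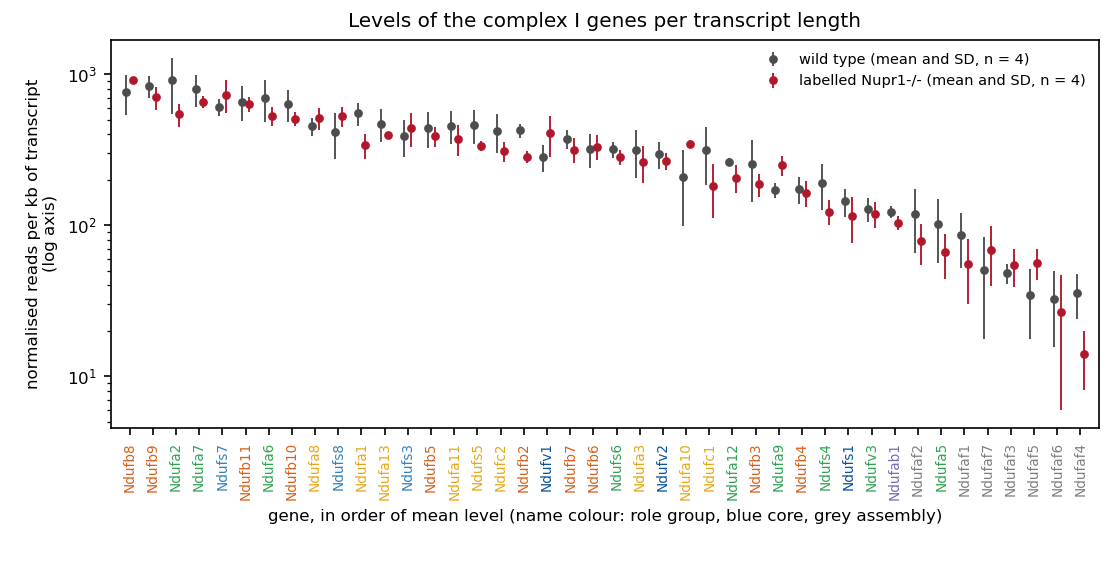
Normalised reads per kb of transcript (log axis) of the 42 complex I genes in order of mean level, as the mean and SD of the 4 wild type libraries and of the 4 labelled Nupr1-/-. Ndufb8 is highest at 836 and Ndufaf4, with a chosen transcript of 3632 bases, lowest at 24.9, and 7 of the 8 lowest genes are assembly factors.

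The promoters of complex I genes were read because the nuclear respiratory factor NRF1 and the factor YY1 are known to act at nuclear genes of the respiratory chain. RefSeq promoter windows of 300 bases (250 before to 50 after the start, GRCm38.p6) were found for 38 of the 42 genes, and the missing ones are Ndufs1, Ndufa2, Ndufb9 and Ndufaf6. An NRF1 motif, GCGC followed by A, any base and GCGC, was searched on both strands. It occurred in 9 of the 38 genes (23.7%) and in 5.19% of 27025 genes in the same table. These were Ndufa5, Ndufa6, Ndufa8, Ndufa11, Ndufs5, Ndufs6, Ndufb4, Ndufaf4 and Ndufaf5. A YY1 motif, AAG followed directly by ATGGCGG, occurred in 4 of 38 (10.5%) against 0.995% of all genes. The ETS-type letters CCGGAAG occurred in 5 of 38 (13.2%) against 9.93%. Only Ndufs6 held more than one of the 3 motifs, and its NRF1 and YY1 matches do not overlap each other. The 27025 genes were not limited to those tested here, so these shares do not set complex I against other expressed genes. A match describes the letters and says nothing of binding in these cells.

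The longest stretch is shown for Ndufaf4, the gene of largest difference, as the 210 bases up to its annotated start (chr4:24897873-24898082, plus strand), with the NRF1 match in capitals. These bases overlap no annotated exon. All sequences are 5′ to 3′ in the direction of the gene.
Ndufaf4: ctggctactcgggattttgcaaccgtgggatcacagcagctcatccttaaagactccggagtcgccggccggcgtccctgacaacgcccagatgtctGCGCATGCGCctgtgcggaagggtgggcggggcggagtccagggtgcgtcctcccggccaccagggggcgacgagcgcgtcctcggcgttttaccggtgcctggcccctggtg

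For comparison, 30 bases around an NRF1 match are shown for Ndufaf4 and for 4 genes whose differences ran from -0.43 to 0.85, with the match in capitals. The first 3 share the palindrome GCGCATGCGC and the other pair the form GCGCAGGCGC. They lie at chr4:24897960-24897989, plus strand for Ndufaf4, chr2:140170652-140170681, plus strand for Ndufaf5 and chr17:56717692-56717721, plus strand for Ndufa11. Those of Ndufb4 and Ndufs5 lie at chr16:37654371-37654400, minus strand, and chr4:123718265-123718294, minus strand.
Ndufaf4: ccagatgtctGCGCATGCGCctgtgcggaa
Ndufaf5: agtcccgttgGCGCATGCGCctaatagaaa
Ndufa11: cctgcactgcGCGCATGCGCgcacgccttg
Ndufb4: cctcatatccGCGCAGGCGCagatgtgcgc
Ndufs5: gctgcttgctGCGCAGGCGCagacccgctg

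All 4 YY1 matches began 24 to 35 bases after the annotated start, on the strand of the gene. The letters ATGG in them are part of the searched motif. They are shown, in capitals, because the 4 genes fell on both sides of 0. They lie at chr10:80249463-80249492, plus strand for Ndufs7, chr6:126849096-126849125, minus strand for Ndufa9, chr13:114388045-114388074, minus strand for Ndufs4 and chr13:73328433-73328462, minus strand for Ndufs6.
Ndufs7: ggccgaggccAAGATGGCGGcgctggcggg
Ndufa9: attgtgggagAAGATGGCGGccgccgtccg
Ndufs4: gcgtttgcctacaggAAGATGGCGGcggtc
Ndufs6: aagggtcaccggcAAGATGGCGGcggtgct

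Fitted differences of genes with the same motif fell on both sides of 0, and none of these genes was called. Of the 9 genes with the NRF1 letters 7 had a difference below 0 and 2 above, where 30 of the 42 were below 0. They ran from -1.35 ± 0.48 (SE, Ndufaf4) to 0.85 ± 0.62 (SE, Ndufaf5), and these 2 genes hold the identical 10 letters. The part of the motifs in these differences was not tested. Of the 4 with the YY1 letters, Ndufa9 (0.53) and Ndufs7 (0.25) were above 0 and Ndufs4 (-0.60) and Ndufs6 (-0.17) below. The 21 genes with none of the 3 motifs had 5 differences above 0 and 16 below.

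The genes that supply complex I, build it beside the Ndufaf factors or share its quinone were counted in 6 lists. Of 85 such genes tested limma called 0, with 11 at an unadjusted p under 0.05, where 19.7% of all genes had one. edgeR called 0, with 8 at an unadjusted p under 0.05 (18.2% of all genes), and DESeq2 called 3 (Coq10b, Etfb and Hadha), where it called 7.05% of all genes. Their median difference was 0.13, with 28 of 85 below 0, against 48.7% of all genes. By list, the differences above 0 numbered 8 of 12 other complex I assembly genes, 13 of 18 NADH-supplying genes, 10 of 14 other genes of quinone reduction and 10 of 13 coenzyme Q genes. They numbered 8 of 13 iron-sulfur assembly genes and 8 of 15 regulators of mitochondrial biogenesis.

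The gene of smallest p in each list is given as a value, and limma called none of them. Foxred1, a complex I assembly factor, differed by 1.42 ± 0.63 (SE; limma adjusted p = 0.233), with groups that did not overlap. Its wild type values ran from 14.8 to 179 normalised reads and those labelled Nupr1-/- from 211 to 327. The lowest value was that of wild type library 2, without which the difference was 0.57. Idh3g, a subunit of the NAD-dependent isocitrate dehydrogenase, differed by 0.65 ± 0.21 (adjusted p = 0.087). Etfb, part of the flavoprotein that feeds electrons to ubiquinone from fatty acid oxidation, differed by 0.65 ± 0.20 (adjusted p = 0.084 in limma and 0.035 in DESeq2), or by 0.33 with the GC and length trend removed. Coq10b, a coenzyme Q binding protein, differed by -1.16 ± 0.44 (adjusted p = 0.152 in limma and 0.027 in DESeq2), and by -1.64 without wild type library 2. Lyrm4, a partner of the cysteine desulfurase of iron-sulfur assembly, differed by 0.88 ± 0.36 (adjusted p = 0.177). Hadha, of fatty acid oxidation, was called by DESeq2 alone among the tools, outside the naming rule, with a limma difference of 1.05 ± 0.34 (adjusted p = 0.093). Pprc1, a coactivator of the PGC-1 family, differed by 1.02 ± 0.47 (adjusted p = 0.246), by 0.63 with that trend removed and by 0.61 without wild type library 3. Without wild type library 2, limma called 5 of the 85 (Coq10b, Etfb, Hadha, Idh3g and Isca1), where 8.15% of all genes were called.

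Ndufa4, the former complex I subunit now assigned to complex IV, was called, unlike the 42. Its mean ± SD (n = 4) was 816 ± 328 normalised reads in wild type and 347 ± 63.5 in libraries labelled Nupr1-/-, a difference of -1.17 ± 0.27 (SE; limma adjusted p = 0.023). Every value of the second group (267 to 411) was below every wild type value (561 to 1269). The call was lost with the GC and length trend removed, where the difference was -0.57 (adjusted p = 0.339). It was also lost without wild type library 1 (adjusted p = 0.072) or 4 (0.065), and without library 1 (0.082) or 2 (0.068) labelled Nupr1-/-.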

How the data were processed

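Polyadenylated RNA of sorted HSCs from 4 wild type and 4 Nupr1-/- mice was sequenced from 1 Nextera XT library for each mouse, per the labels' protocols. The submitters' processing notes name the build mm10, with HISAT2 and featureCounts (Subread) among the tools and also DESeq2 and bcl2fastq. No version or setting was at hand. In the deposited table each gene has a normalised signal which, from the values, is a read count divided by 1 size factor per library. All values (100%) were whole multiples of 1 step per library within 0.001, and dividing by it gave back the reads. The entry without a name held at most 0.00109% of a library's reads and was left out.

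Each value plus 1 was log2 transformed. Genes with at least 10 in at least 4 libraries were tested (10989, with 865 left out), in limma 3.58.1 (eBayes, trend and robust, R 4.3.3), two-sided, over all 8 libraries, with Benjamini-Hochberg adjustment and a threshold of 0.05. The fit was checked on simulated counts (10698 genes, with 6 unchanged genes called). Alternatives were an added value of 5, no filter, edgeR 4.0.16 (TMM) and DESeq2 1.42.0 on the recovered reads, the replicate number as a block, removal of each library's trend in GC content and transcript length (natural splines, 4 degrees of freedom), and leaving out each library. Removing that trend with wild type library 2 also left out was added after seeing the data. GC content, lengths, positions and shared 50-base stretches come from GENCODE (mm10). Intervals are 95% intervals of the fit.

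The members, lists and tests were chosen with earlier results of these data known. Of the genes the rule and the lists hold, 1 each is not reported here and enters no count over them. Values are given by library for the core subunits, Ndufab1, the 2 genes of smallest p in each other role group and the genes of highest and lowest level per length, and for others where said.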

Additional observations from a re-analysis of the deposited data

Results flagged for a closer look

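Among 92 groups of 4 values (42 genes and the sums over all of them, the core subunits, the accessory subunits and the assembly factors, in each genotype), 6 had 1 library standing apart from the other 3 by Dixon's test, where chance gives about 1 in 20. Wild type library 2 was that library in 3 of the 6. It was high for Ndufs4, at 490 normalised reads against 255 to 283 in the other 3 wild type libraries, for Ndufc2, at 417 against 242 to 251, and for the assembly factor Ndufaf2, at 135 against 58.5 to 67.8. Ndufa12 was low in wild type library 3, at 264 against 297 to 302. Among libraries labelled Nupr1-/-, Ndufb3 was low in library 3, at 105 against 152 to 159.6, and Ndufc1 was high in library 4, at 90.7 against 44.9 to 49.5.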

How the results depend on the processing

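Limma called 418 genes of the transcriptome as analysed, 775 were called with DESeq2, 23 with the GC and length trend removed, 224 with that trend removed and wild type library 2 left out, and 48 to 883 with 1 library left out. Each of the 8 libraries moved this count, which rose only without wild type library 2, and the cause was not tested. Complex I genes called stayed at 0 of 42 under all these settings except without wild type library 2, where Ndufa2 was called, so leaving out 1 library gave 0 to 1. Pathway genes called were 0 of 85 in limma, 3 in DESeq2, 2 with the trend removed and wild type library 2 left out, and 0 to 5 with 1 library left out, the 5 without wild type library 2.

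The median difference of the 42 genes, -0.24, ranged from -0.31 to -0.14 with 1 library left out and was -0.076 with the trend removed and wild type library 2 left out, with the sign unchanged. Of 368 values of the 23 genes followed, 346 kept their direction and side of the threshold, 8 passed it and 14 changed sign, all under removal of the GC and length trend. With the trend removed, the difference of Ndufab1 was 0.01, of Ndufs3 -0.021, of Ndufs7 -0.11 and of Ndufv2 0.34, with or without the replicate block. With wild type library 2 also left out, Ndufab1 was at 0.10, Ndufs1 at 0.037, Ndufs7 at -0.030, Ndufv2 at 0.41, Ndufs4 at 0.071 and Ndufc2 at 0.13. None of these 14 values passed the threshold.

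Libraries with the same replicate number did not deviate together (correlations across genes of -0.057 to 0.015). Correlations near 0 cannot exclude that mice were paired, so this does not settle the design. With the replicate block limma called 277 genes, and 26 with the block and the trend removed, with 0 of 42 complex I genes in both. The least covered complex I value, of Ndufaf6, rests on 11 reads.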
